A study of Mus musculus with 18 samples.

Results

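The genes described here are 9 enzymes and binding proteins of energy metabolism, most of them the forms that skeletal muscle uses: Ckm, Ckb, Ckmt2, Eno3, Pygm, Pgam2, Mb, Fabp3 and Ampd1. They were chosen by name, among 35275 genes listed in the expression table, and all 9 were found through the gene symbols and Ensembl identifiers that the deposited comparison tables pair. Ckb is the general (brain-type) creatine kinase and serves as the counterpart of Ckm. Expression was measured by sequencing polyadenylated RNA from C2C12 cells, a mouse myoblast line that normally fuses into myotubes when serum is lowered, here a stock that the labels call PAX7 negative. The study compared wild-type cells (control) with cells overexpressing the spliced form (MUNC spliced) or the genomic form (MUNC genomic) of MUNC, a promyogenic long noncoding RNA whose gene lies upstream of Myod1. Each line was sampled at about 80% confluency in growth medium with 20% fetal bovine serum (GM) and after 3 days in differentiation medium with 2% horse serum (DM3), with 3 biological replicates in each of the 6 groups. The labels do not give the promoter that drives MUNC or say whether a line is 1 clone, so a difference between a MUNC line and control cannot be told apart from a difference between lines. Values are in FPM, fragments scaled to the size of the library and not divided by gene length.

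Muscle contraction uses ATP faster than slow pathways can replace it, and skeletal muscle therefore makes its own isoforms of several enzymes that buffer or regenerate ATP. Creatine kinase moves phosphate between creatine and ATP. Myoblasts typically carry the brain-type subunit CKB, and in textbook myogenesis the muscle-type subunit CKM takes over as the cells fuse. Enolase and phosphoglycerate mutase, steps of glycolysis, show a similar passage from the general forms (Eno1, Pgam1) to the muscle forms (Eno3, Pgam2). PYGM breaks down glycogen, MB (myoglobin) binds oxygen, FABP3 carries fatty acids and AMPD1 deaminates AMP in working muscle. MYOD1 and MYOG, the myogenic transcription factors, bind E-boxes (CANNTG) and act with MEF2 proteins on many muscle genes, and Ckm is a classical target whose best known enhancer lies further upstream than the promoter sequence shown here.

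The coding sequences of Ckm and Ckb are shown first because the comparison between them depends on reads being assigned to the right gene. These are the first 120 coding bases of each, from GENCODE transcripts on GRCm38, with the 33 positions at which they differ in capitals.

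Ckm: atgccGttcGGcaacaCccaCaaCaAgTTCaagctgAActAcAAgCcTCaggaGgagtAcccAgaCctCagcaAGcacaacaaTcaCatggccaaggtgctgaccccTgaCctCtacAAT
Ckb: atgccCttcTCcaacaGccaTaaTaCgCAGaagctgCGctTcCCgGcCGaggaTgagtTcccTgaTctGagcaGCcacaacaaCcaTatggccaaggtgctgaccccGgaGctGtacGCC

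Over the whole coding sequence, Ckm and Ckb were identical at 76.0% of 1149 aligned columns, and their longest run of shared bases was 20. Eno3 and Eno1 were identical at 76.7% of columns, with a longest shared run of 20 bases, and Pgam2 and Pgam1 at 74.5%, with a run of 28 bases. Pygm and Pygb shared the longest run, 62 bases, at 77.3% identity.

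The promoters of Ckm, Ckb and Pgam2 are shown because these genes had different patterns across the 6 groups. Each sequence is the 250 bases before the RefSeq transcription start on GRCm38.p6, in the direction of transcription. Capitals mark matches to CAGCTG, to CACCTG on either strand, or to the MEF2 consensus. The Ckm window is chr7:19410844-19411093 on the plus strand, the Ckb window is chr12:111672339-111672588 on the minus strand and the Pgam2 window is chr11:5803797-5804046 on the minus strand.

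Ckm: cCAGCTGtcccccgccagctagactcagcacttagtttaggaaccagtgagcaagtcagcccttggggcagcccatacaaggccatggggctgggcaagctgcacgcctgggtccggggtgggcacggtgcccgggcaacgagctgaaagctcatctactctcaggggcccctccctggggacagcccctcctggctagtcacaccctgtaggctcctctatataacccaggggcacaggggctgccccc
Ckb: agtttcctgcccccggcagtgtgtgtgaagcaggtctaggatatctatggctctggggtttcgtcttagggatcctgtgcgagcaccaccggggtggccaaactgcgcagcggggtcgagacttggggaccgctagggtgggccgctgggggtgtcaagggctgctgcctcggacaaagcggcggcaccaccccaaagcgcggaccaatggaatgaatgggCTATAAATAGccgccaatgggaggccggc
Pgam2: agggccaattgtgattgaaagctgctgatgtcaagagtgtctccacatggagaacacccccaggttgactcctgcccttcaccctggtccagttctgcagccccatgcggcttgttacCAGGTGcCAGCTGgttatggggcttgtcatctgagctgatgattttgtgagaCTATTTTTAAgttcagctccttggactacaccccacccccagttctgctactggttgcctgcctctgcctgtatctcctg

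The Ckm window held 1 CAGCTG, 243 bases before the start, and no MEF2 match. The Ckb window held no CANNTG at all, and its 1 MEF2 match, CTATAAATAG, contains TATAAA, the letters of a TATA box. The Pgam2 window held 5 CANNTG, among them 1 CAGCTG and 1 match to CACCTG on the other strand. It also held 1 MEF2 match, CTATTTTTAA. RefSeq promoters were matched for 8 of the 9 genes, with 10 starts in all because Mb has 3, and none was matched for Ampd1. CAGCTG was present in 5 of the 8 (Ckm, Ckmt2, Pygm, Pgam2 and Mb, the last at 2 of its 3 starts), against 13% of the 32851 RefSeq promoter windows of the same length. CANNTG, which includes CAGCTG and CACCTG, was found in 66.2% of those windows, CACCTG in 17.2% and the MEF2 consensus in 2.92%, so a single CANNTG is common. These matches describe letters and not occupied sites.

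Recovered depth was 38416702 to 68788327 reads per library, so that 3 reads, the upper limit that a count of 0 allows, corresponded to 0.0429 to 0.0757 FPM. The regulators that define differentiation differed strongly between lines. Myod1 was at 0 to 0.221 FPM in the 6 control libraries, against 8.84 to 53.3 FPM in MUNC spliced and 1.66 to 22.5 FPM in MUNC genomic libraries. Myog reached only 0.434 FPM in control DM3, so both regulators were low in the control cells of this stock also after 3 days in DM3. Some muscle genes still rose in control DM3. Des, the intermediate filament desmin, rose by 1.68 (limma adjusted p = 0.000527) and Tnnt3, fast troponin T, by 2.18 (limma adjusted p = 0.00191). Of the same list of myogenic markers, Acta1 went the other way, from 20.7 FPM on average in control GM to 4.35 FPM in control DM3. Myf5 went from 71.8 to 103 FPM and Myh3 from 0.309 to 0.444 FPM. MUNC spliced DM3 replicate 1 stood apart, with Myog at 226 FPM against 52.6 and 41.0 FPM in the other two replicates, and with Myh3, embryonic myosin, at 177 FPM against 24.2 and 37.9 FPM. Among markers of other cell types, the 5 cardiac markers summed to 0.401 to 3.76 FPM over the 18 libraries and the 5 adipocyte markers to 0.930 to 12.7 FPM, with Lep at 0 in every group. The 4 smooth muscle markers summed to 1908 to 3119 FPM in MUNC spliced DM3 and to 2219 to 3507 FPM in MUNC genomic DM3. Control DM3 was lower, at 1257 to 1369 FPM. These sums were nearly all Acta2, which was thus higher in the same DM3 libraries as Ckm and Ckb. Cnn1 went the other way, with 0.560, 1.75 and 6.36 FPM on average in MUNC spliced, MUNC genomic and control DM3. In the same order, Smtn averaged 82.9, 66.6 and 80.8 FPM and Myh11 0.247, 0.0361 and 0.184 FPM. The 5 fibroblast markers summed to 3416 to 4018 FPM in MUNC spliced DM3, above the 1702 to 2260 FPM of control DM3. In MUNC genomic DM3 the sum was below control, at 1250 to 1510 FPM. These sums were nearly all Col1a1. Pdgfra and Lum were higher in MUNC genomic than in control DM3, at 26.1 against 10.3 and 8.71 against 1.34 FPM on average. Dpt was lower, at 0.0165 against 0.770 FPM. In GM the smooth muscle sums were 1182 to 1838 FPM in control, 1820 to 2529 FPM in MUNC spliced and 1867 to 2144 FPM in MUNC genomic cells, and the fibroblast sums spanned 786 to 5836 FPM over the 9 libraries. The part of these cell type markers in the results below was not tested.

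Ckm, the muscle creatine kinase subunit, was all but silent in control cells in both media and in both MUNC lines in GM, and it was present in all 6 MUNC libraries in DM3. In control cells it had 0.0341, 0 and 0.0461 FPM in GM and 0.0384, 0.0395 and 0.0553 FPM in DM3, from 0 to 3 reads per library. In MUNC spliced cells it had 0.0252, 0.0733 and 0.0721 FPM in GM and 5.05, 0.732 and 2.15 FPM in DM3. In MUNC genomic cells it had 0.0143, 0 and 0 FPM in GM and 1.80, 5.47 and 3.30 FPM in DM3. The lowest of the 6 MUNC DM3 libraries, MUNC spliced replicate 2, was thus above every one of the other 12 libraries, and the MUNC DM3 replicates themselves varied widely. With limma on log2(FPM + 1), Ckm rose from GM to DM3 by 1.60 (SE 0.32, adjusted p = 0.00118) in MUNC spliced cells. The rise in MUNC genomic cells was 2.09 (SE 0.32, limma adjusted p = 5.96e-05). In control cells the difference was 0.02 (SE 0.32), from 5 reads in GM and 7 in DM3. Because all of these samples are bulk RNA, fewer cells that express a gene and less RNA per cell cannot be told apart.

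The log2(FPM + 1) scale understates these changes, since Ckm was near 0 in 4 of the 6 groups. From pooled reads, the ratio of DM3 to GM was 42.9 in MUNC spliced cells (95% exact interval 22.4 to 94.5, for counting error only). The MUNC genomic ratio was 655 (interval 117 to 25896), with only 1 read in GM. Against control in DM3, the pooled ratio was 57.9 (27.9 to 145) for MUNC spliced and 83.1 (40.1 to 208) for MUNC genomic cells. By limma Ckm was higher than in control DM3 by 1.62 (SE 0.32, adjusted p = 0.000694) in MUNC spliced cells. The excess in MUNC genomic cells was 2.03 (SE 0.32, limma adjusted p = 8.88e-05). Both MUNC lines overlapped in DM3, and their difference of -0.41 (SE 0.32, limma adjusted p = 0.315) did not pass the test. Without MUNC spliced DM3 replicate 1 it was -0.87 and passed. The response to DM3 exceeded that of control cells by 1.58 (SE 0.45, limma adjusted p = 0.03) in MUNC spliced cells and by 2.06 (SE 0.45, limma adjusted p = 0.00847) in MUNC genomic cells. The first of these was sensitive to single libraries, with values between 1.12 and 2.02. It lost its call without control GM replicate 1 or 3, MUNC spliced GM replicate 1 or 2, or control DM3 replicate 2 or 3, and neither edgeR nor limma without the filter on low values called it.

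Ckm followed Myod1 and Myog only in part. Among the DM3 replicates of each MUNC line, the one with the highest Ckm also had the highest Myod1 and Myog. These were MUNC spliced replicate 1 and MUNC genomic replicate 2, and the order of the other replicates differed. Across lines and media the levels did not match. MUNC spliced GM libraries already had 8.84 to 17.9 FPM of Myod1 and 5.48 to 12.6 FPM of Myog, but no more than 4 reads of Ckm. MUNC genomic DM3 libraries had a similar range, 14.5 to 22.5 FPM of Myod1 and 6.50 to 14.7 FPM of Myog, and 91 to 363 reads of Ckm. MUNC spliced DM3 replicate 1 had the highest Myog of all, yet its Ckm, 5.05 FPM, was below the 5.47 FPM of MUNC genomic replicate 2. The plot of Ckm against both regulators shows these positions. The part of Myod1 and Myog in the Ckm level was not tested.

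**Figure D1:**
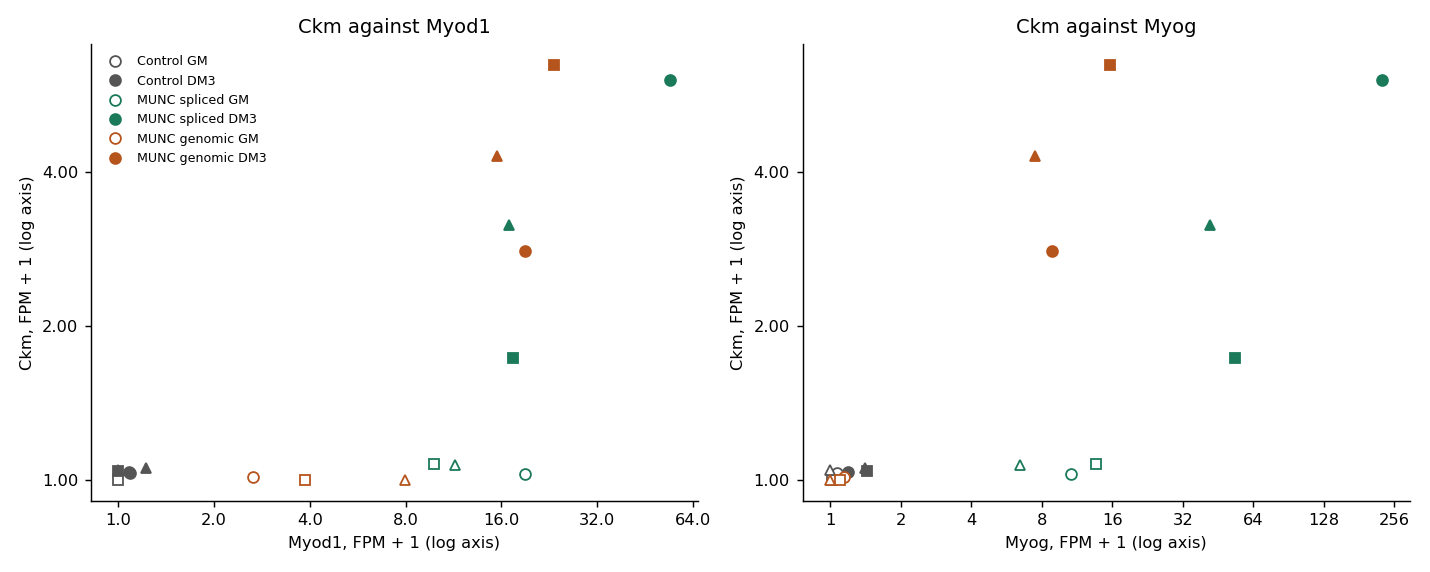
Ckm (vertical axis, FPM + 1, log scale) against Myod1 (left) and Myog (right; horizontal axes, FPM + 1, log scale) in the 18 libraries. Open symbols are GM, filled symbols DM3, and circles, squares and triangles are replicates 1, 2 and 3; the 3 open green MUNC spliced GM points lie well to the right of control but at the same low Ckm level.

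Ckb, the general subunit, was present in every library and was also higher in the MUNC lines, including those in which Ckm appeared. Control cells had 1.30, 2.44 and 1.40 FPM in GM and 1.36, 1.64 and 2.54 FPM in DM3. MUNC spliced cells had 4.32, 10.5 and 3.95 FPM in GM and 6.99, 7.88 and 4.23 FPM in DM3. MUNC genomic cells had 3.79, 6.26 and 1.85 FPM in GM and 9.42, 8.48 and 12.1 FPM in DM3. All MUNC spliced libraries lay above all control libraries of the same medium, while 1 MUNC genomic GM library fell within the control range. Ckb was higher than control in MUNC spliced cells by 1.33 in GM (SE 0.34, limma adjusted p = 0.00670) and by 1.36 in DM3 (SE 0.34, limma adjusted p = 0.00446). It exceeded control in MUNC genomic cells by 1.96 in DM3 (SE 0.34, limma adjusted p = 0.000241). The GM difference of 0.80 (SE 0.34, limma adjusted p = 0.0983) did not pass. It was called by edgeR without a filter on low values, at 1.22 (adjusted p = 0.0410), and by DESeq2. Limma called it without MUNC genomic GM replicate 3 (value 1.15). The authors' deposited value for it was 1.26 (DESeq2 adjusted p = 0.0158).

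Differentiation itself raised Ckb only in MUNC genomic cells among the tests that passed, by 1.24 (SE 0.34, limma adjusted p = 0.00662). The changes in control (0.07) and MUNC spliced cells (0.10), each with SE 0.34, did not pass. The test of the difference between the MUNC genomic and the control response gave 1.16 (SE 0.48, limma adjusted p = 0.165), so these responses were not shown to differ. The summed neuronal markers did not move with Ckb across the media, but single markers differed. In MUNC genomic cells Syt1 averaged 4.75 FPM in GM and 13.4 FPM in DM3, while Stmn2 averaged 92.3 and 45.7 FPM. In MUNC genomic cells, where Ckb rose, the 5 listed markers summed to 98.8 to 111 FPM in GM and to 58.9 to 75.0 FPM in DM3, with Snap25 and Rbfox3 at 0 in both. In control cells they summed to 21.2 to 64.7 FPM in GM and to 7.12 to 7.46 FPM in DM3. The MUNC genomic sums were thus above control in each medium, mostly through Stmn2. Tubb3 in GM was lower than control, at 9.39 against 37.4 FPM on average. MUNC spliced cells, where Ckb was also high, had sums of 28.5 to 89.6 FPM in GM and 6.18 to 18.1 FPM in DM3, overlapping control. The part of these transcripts in the Ckb level was not tested.

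Per kilobase of exon, Ckm remained the minor form even where it was highest. Its share of Ckm plus Ckb was 41.8%, 8.45% and 33.6% in the 3 MUNC spliced DM3 libraries and 16.0%, 39.1% and 21.3% in the 3 MUNC genomic DM3 libraries. In the 12 other libraries it was between 0 and 3.17%. The log2 ratio of Ckm to Ckb, each per kilobase with 0.1 added, was -4.11 ± 0.70 (SD, n = 3) in MUNC spliced GM and -1.45 ± 1.36 in MUNC spliced DM3. The ratio in MUNC genomic cells went from -3.71 ± 0.81 in GM to -1.55 ± 0.83 in DM3. The differences, 2.66 and 2.17, had an exact two-sided permutation p of 0.1 each (n = 3 against 3), the smallest this design allows. In control cells the ratio was -2.62 ± 0.53 in GM and -2.64 ± 0.36 in DM3, a difference of -0.02 (exact permutation p = 0.8, n = 3 against 3), and it rests largely on the added 0.1 because Ckm had so few reads.

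**Figure D2:**
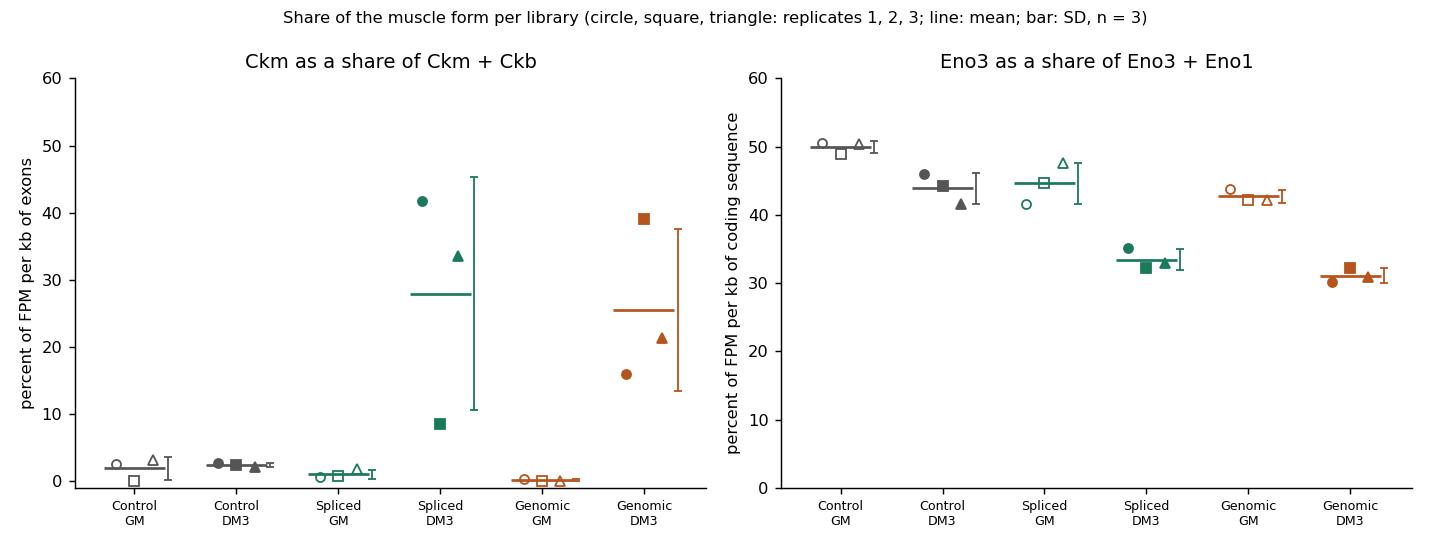
Share of the muscle form in each library, as a percentage of the summed level of both forms per kilobase: Ckm of Ckm plus Ckb over exons (left) and Eno3 of Eno3 plus Eno1 over coding sequence (right). Points are libraries, lines are means and bars SD (n = 3, not drawn below 0); the Ckm share is above 8% only in MUNC DM3, while the Eno3 share is lower in DM3 than in GM on average in each line.

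Ckmt2, the sarcomeric mitochondrial creatine kinase, was not expressed at a level that this depth could compare. It had 15 reads over all 18 libraries, 8 of them in control GM replicate 2, and none in 12 libraries. Its counterpart Ckmt1, the ubiquitous mitochondrial form, was at 0 to 0.189 FPM on average in the 6 groups.

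Eno3, the muscle enolase, was by far the most abundant of the 9 genes and fell from GM to DM3 in every line, whether or not Ckm rose. Its median over the 18 libraries was 237 FPM per kilobase, against 2.07 for Pgam2, 1.41 for Ckb and 0.492 for Pygm. Control cells had 811, 670 and 867 FPM in GM and 439, 363 and 378 FPM in DM3. MUNC spliced cells had 398, 427 and 553 FPM in GM and 305, 221 and 169 FPM in DM3. MUNC genomic cells had 501, 452 and 540 FPM in GM and 269, 200 and 236 FPM in DM3. In each line every DM3 library was below every GM library, and in each medium every MUNC library was below every control library. Eno3 fell from GM to DM3 by 0.99 (SE 0.19, limma adjusted p = 0.000283) in control cells. The fall was -1.01 (SE 0.19, limma adjusted p = 0.000638) in MUNC spliced and -1.09 (SE 0.19, limma adjusted p = 0.000157) in MUNC genomic cells. The tests of a different response in the MUNC lines gave -0.03 (SE 0.26, limma adjusted p = 0.963) and -0.10 (SE 0.26, limma adjusted p = 0.870).

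Against control, Eno3 was lower in MUNC spliced cells by -0.77 in GM (SE 0.19, limma adjusted p = 0.00423) and by -0.80 in DM3 (SE 0.19, limma adjusted p = 0.00244). MUNC genomic cells were lower by -0.65 in GM (SE 0.19, limma adjusted p = 0.0163) and by -0.75 in DM3 (SE 0.19, limma adjusted p = 0.00422). The GM difference of MUNC genomic cells lost its call when control replicate 1, control replicate 3 or MUNC genomic replicate 2 was left out, with values from -0.75 to -0.57 over the 6 libraries left out in turn. Eno1, the general enolase, went in control cells from 781 ± 78.6 FPM in GM to 502 ± 39.0 FPM in DM3 (SD, n = 3), a fall of -0.64 (SE 0.17, limma adjusted p = 0.00388). Its DM3 levels in the MUNC lines, 458 ± 110 and 524 ± 102 FPM (SD, n = 3), overlapped those of control. By coding length, Eno3 was 50% ± 0.872 of the enolase pair in control GM and 43.9% ± 2.25 in control DM3 (SD, n = 3). It was 33.4% ± 1.54 in MUNC spliced DM3 and 31.1% ± 1.09 in MUNC genomic DM3 (SD, n = 3), below each of the control DM3 libraries, which had 41.5% to 46.0%. With exon length in place of coding length the shares were higher, in the same order. They were 75.5% in control GM, 70.7% in control DM3, and 60.8% and 58.3% in DM3 of the MUNC lines. The size of the share thus depends on the length used. Eno2, the neuronal form, rose in control DM3 by 2.29 (SE 0.24, limma adjusted p = 1.38e-06) and was lower than control in both MUNC lines in both media.

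Pgam2, the muscle phosphoglycerate mutase, was the member that rose in control cells, without Myod1 or Myog at appreciable levels. Control cells had 0.751, 0.566 and 0.891 FPM in GM and 1.81, 3.02 and 3.17 FPM in DM3. MUNC spliced cells had 1.79, 1.58 and 1.24 FPM in GM and 1.69, 2.02 and 2.60 FPM in DM3. MUNC genomic cells had 1.12, 1.16 and 1.11 FPM in GM and 2.10, 2.64 and 1.95 FPM in DM3. The 3 lines differed most in GM, where both MUNC lines lay above control without overlap, and overlapped in DM3. The rise in DM3 was 1.06 (SE 0.16, limma adjusted p = 2.74e-05) in control and 0.59 (SE 0.16, limma adjusted p = 0.00449) in MUNC genomic cells. In MUNC spliced cells the change of 0.29 (SE 0.16, limma adjusted p = 0.161) did not pass. In GM Pgam2 was higher than control in MUNC spliced cells by 0.55 (SE 0.16, limma adjusted p = 0.0121), a call lost without MUNC spliced replicate 1 (value 0.47) and with quantile normalization (value 0.33). Quantile normalization also ended the call of the MUNC genomic rise, at 0.38. For MUNC genomic cells the difference of 0.30 (SE 0.16, limma adjusted p = 0.171) did not pass. The MUNC spliced response to DM3 was smaller than that of control by -0.77 (SE 0.22, limma adjusted p = 0.0286), with values between -0.96 and -0.67 when 1 library was left out. The call was lost without control GM replicate 1 or 2, MUNC spliced GM replicate 1 or 2, control DM3 replicate 2 or 3, or MUNC spliced DM3 replicate 1 or 2. It was also lost without the filter, with quantile normalization, with only the groups compared in the fit, and with unfiltered edgeR. For MUNC genomic cells the difference in response was -0.47 (SE 0.22, limma adjusted p = 0.223), and it passed without control DM3 replicate 1, at -0.65. Pgam1, the general form, was at 87.6 to 143 FPM on average in the 6 groups, so that Pgam2 was 0.511% to 2.54% of the pair by coding length.

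Pygm, muscle glycogen phosphorylase, showed no difference that passed the test in any of the 11 comparisons. It had 1.26, 1.06 and 1.78 FPM in control GM and 1.08, 1.70 and 4.13 FPM in control DM3. MUNC spliced cells had 1.26, 1.98 and 2.02 FPM in GM and 2.75, 1.15 and 2.17 FPM in DM3, and MUNC genomic cells 1.69, 1.33 and 1.37 FPM in GM and 1.05, 1.48 and 2.67 FPM in DM3. The spread between DM3 replicates of 1 group exceeded the differences between groups. The largest limma value was 0.38 (SE 0.29, adjusted p = 0.269) for control DM3 against GM. Pygb, the brain form, was at 86.1 to 140 FPM on average and was below control in MUNC spliced cells, by -0.64 in GM (SE 0.10, limma adjusted p = 0.000176) and by -0.66 in DM3 (SE 0.10, limma adjusted p = 8.38e-05).

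**Figure D3:**
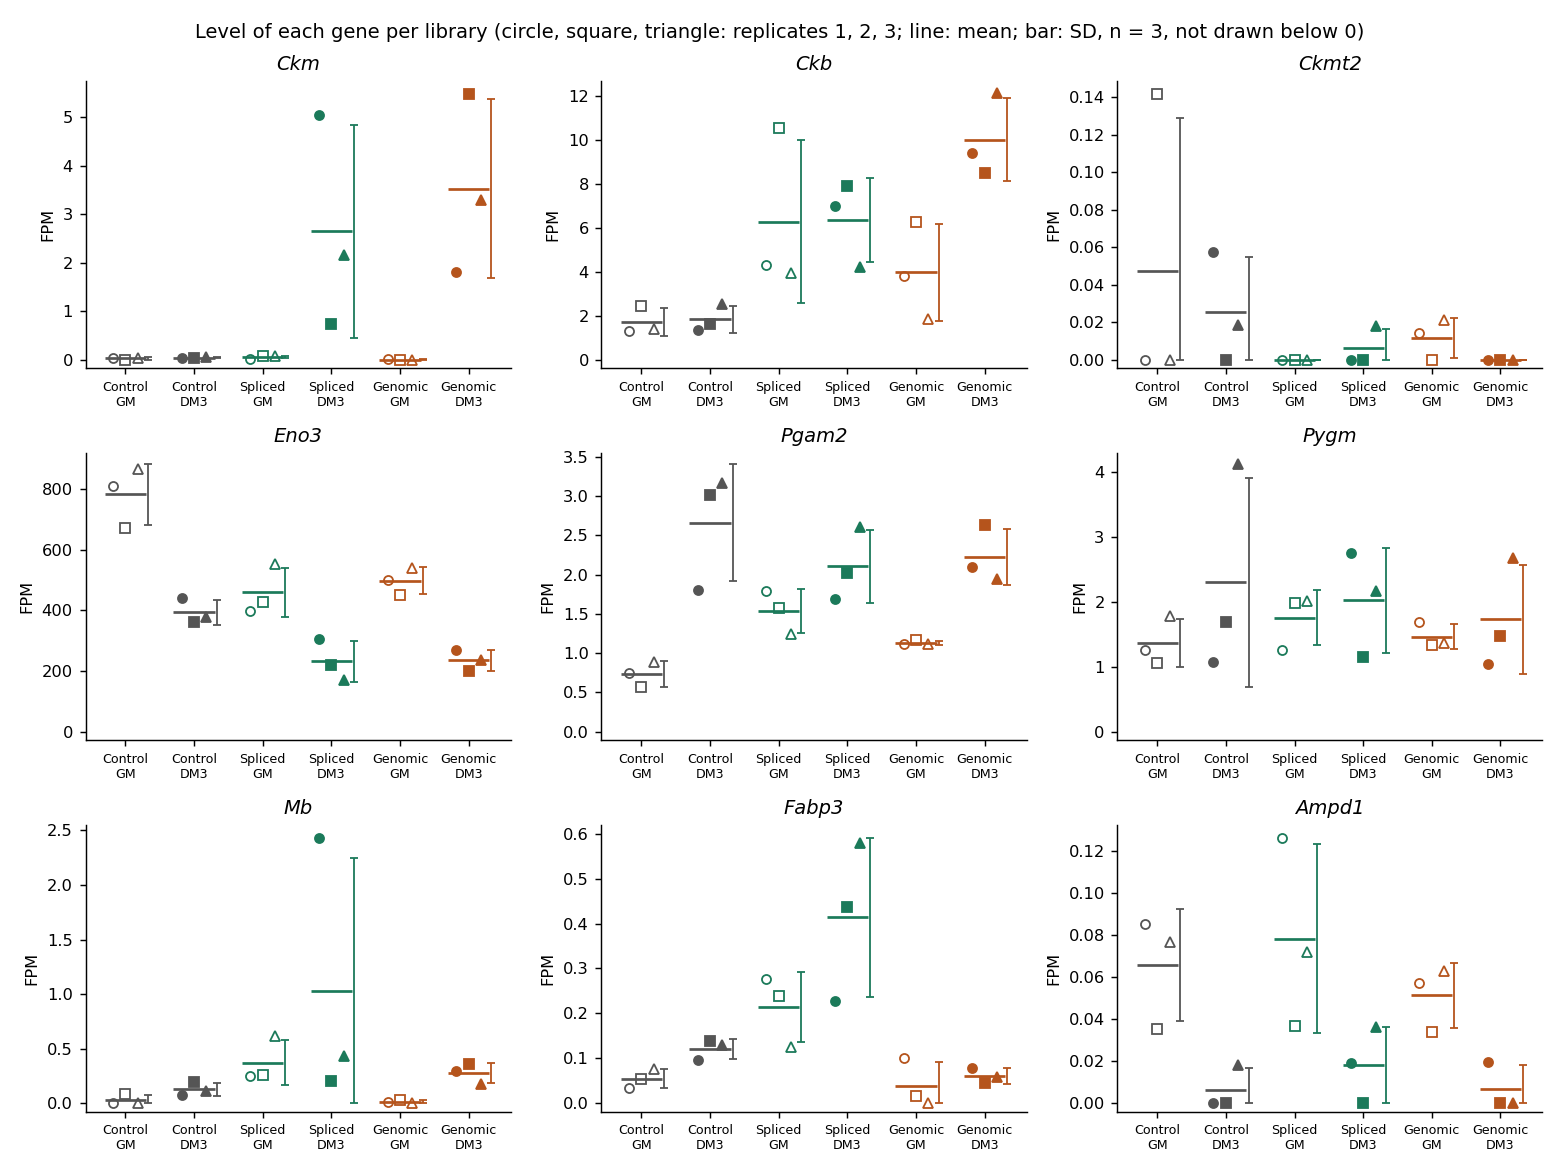
FPM of each of the 9 genes (vertical axes, linear) in the 6 groups, with open symbols for GM and filled symbols for DM3. Points are libraries, lines means and bars SD (n = 3, not drawn below 0); Ckm is above 0.5 FPM only in MUNC DM3, Eno3 is highest in control GM, and Ckmt2 and Ampd1 stay below 0.15 FPM throughout.

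The remaining 3 genes stayed below the filter on low values (0.5 FPM in at least 3 libraries), as did Ckmt2, and were compared by edgeR on the recovered reads without that filter, an alternative added after the data were seen. Mb, the oxygen store of oxidative muscle, had 0, 5 and 0 reads in control GM and 4, 10 and 6 in control DM3. MUNC spliced cells had 10, 14 and 34 reads in GM and 128, 12 and 24 in DM3, and MUNC genomic cells 1, 2 and 0 in GM and 15, 24 and 9 in DM3. In FPM, the highest library was MUNC spliced DM3 replicate 1 with 2.43, the library with the highest Myog, and the next was MUNC spliced GM replicate 3 with 0.613. Mb rose from GM to DM3 in MUNC genomic cells by 3.91 (edgeR adjusted p = 0.00840), a pooled ratio of 16.8 from 48 and 3 reads (95% exact interval 5.42 to 84.4). In control cells its change of 2.09 (edgeR adjusted p = 0.162) did not pass, with a pooled ratio of 4.59 (interval 1.67 to 15.6). The MUNC spliced level in GM exceeded that of control by 3.62 (edgeR adjusted p = 0.0117), with a pooled ratio of 14.0 (interval 5.65 to 44.6). It was also higher than in MUNC genomic GM by 4.29 (edgeR adjusted p = 0.00564). The excess of MUNC spliced over control in DM3 was 2.99 (edgeR adjusted p = 0.00859). Without MUNC spliced replicate 1 the value was 1.34 and no longer passed. The GM difference from control lost its call without control replicate 1 or 3 or MUNC spliced replicate 3, with values between 3.03 and 7.39. None of these 4 calls was made by limma without the filter. Of the exon bases of Mb, 27.6% overlap an antisense gene, Gm49540, and the strand setting of the counting is not given in the sources used here.

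Fabp3, the heart and muscle fatty acid binding protein, had 147 reads in all and differed between the MUNC lines. It had 0.0341, 0.0531 and 0.0768 FPM in control GM and 0.0960, 0.138 and 0.129 FPM in control DM3. MUNC spliced cells had 0.278, 0.238 and 0.126 FPM in GM and 0.228, 0.436 and 0.579 FPM in DM3. MUNC genomic cells had 0.1, 0.0169 and 0 FPM in GM and 0.0791, 0.0452 and 0.0585 FPM in DM3. All MUNC spliced libraries were above all control and MUNC genomic libraries of the same medium. In DM3 the MUNC spliced level exceeded the MUNC genomic level by 2.71 (edgeR adjusted p = 0.00482), a pooled ratio of 7.02 (95% exact interval 3.60 to 15.3). In GM the excess was 2.21 (edgeR adjusted p = 0.0363), with values between 1.73 and 4.17 when 1 library was left out. That call was lost without MUNC spliced replicate 1 or 2 or MUNC genomic replicate 2 or 3. Against control the MUNC spliced values, 1.87 in GM (edgeR adjusted p = 0.0734) and 1.77 in DM3 (edgeR adjusted p = 0.0501), did not pass. This depended on the tool: DESeq2 called both, at 1.93 and 1.79, and limma without the filter called the DM3 difference, at 0.33 on the log2(FPM + 1) scale. By edgeR the DM3 value passed without MUNC spliced replicate 1, at 2.08. Of the exon bases of Fabp3, 9.84% overlap Zcchc17, a gene on the other strand with a mean of 60.9 FPM. The adipocyte markers, another source of fatty acid carriers, summed to 8.15 to 8.30 FPM in MUNC spliced DM3 and to 0.930 to 2.24 FPM in MUNC genomic DM3, with Pparg the only one of the 5 above 3 reads in every library and Adipoq, Cidec and Lep at 0 in both groups. Their part in the Fabp3 difference was not tested.

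Ampd1, muscle AMP deaminase, had 37 reads in all, 32 of them in GM. It had 5, 2 and 5 reads in control GM, 5, 2 and 4 in MUNC spliced GM and 4, 2 and 3 in MUNC genomic GM. In DM3 it had 0, 0 and 1 reads in control, 1, 0 and 2 in MUNC spliced and 1, 0 and 0 in MUNC genomic cells. The pooled ratio of DM3 to GM in control was 0.0956 (95% exact interval 0.00224 to 0.646), and edgeR gave -3.0 (adjusted p = 0.0616), which did not pass, as with DESeq2 (-3.26). It passed without control DM3 replicate 3 (-4.91) and with limma without the filter, on the log2(FPM + 1) scale, at -0.083. The last also called the MUNC spliced difference between DM3 and GM, at -0.082. Ampd1 was thus not induced to a detectable level in any line, at a depth where 3 reads were at most 0.0757 FPM. The other isoforms were far more abundant and moved in opposite directions. Ampd3, the erythrocyte form, rose in DM3 by 2.33 (SE 0.28, limma adjusted p = 4.9e-06) in control and by 2.85 (SE 0.28, limma adjusted p = 1.51e-06) in MUNC genomic cells, while in MUNC spliced cells its change of 0.64 (SE 0.28, limma adjusted p = 0.0880) did not pass. Ampd2, the liver form, fell by 0.37 (SE 0.14, limma adjusted p = 0.0356) in control, by 0.59 (limma adjusted p = 0.00437) in MUNC spliced and by 0.60 (limma adjusted p = 0.00211) in MUNC genomic cells.

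The fit across all genes covered 5 of the 9 members (Ckm, Ckb, Eno3, Pygm and Pgam2), and Ckm passed its filter only through the MUNC DM3 libraries. Counts over these 5 are therefore no measure of the whole set, and the share of all 13869 tested genes called the same way is given beside each. In control cells, 1 member rose in DM3 and 1 fell, where 29.6% of all genes were called higher and 28.6% lower. In MUNC spliced cells, 1 rose (Ckm) and 1 fell (Eno3), beside 17.2% and 18.4% of all genes. In MUNC genomic cells, 3 rose (Ckm, Ckb and Pgam2) and 1 fell (Eno3), beside 26.3% and 25.1%. In GM, 2 were higher (Ckb and Pgam2) and 1 lower (Eno3) in MUNC spliced cells than in control, beside 18.2% and 17.3%, or 2530 and 2399 genes, a split that became 3240 and 1659 when libraries were scaled to equal sums. In MUNC genomic GM only Eno3 was called, among 14.5% of genes called lower. The 1694 higher and 2017 lower genes of that comparison became 2049 and 1600 with equal sums. In DM3 each MUNC line had 2 members called higher (Ckm and Ckb) and 1 lower (Eno3), beside 22.3% and 21% of all genes for MUNC spliced and 19.3% and 20.9% for MUNC genomic cells.

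None of the 5 was called between the MUNC lines by limma, where 35.8% of all genes were called in GM and 44.2% in DM3. At an unadjusted limma p under 0.05 the count was also 0 of 5 in each medium, a threshold at which no share of all genes was computed. Without the filter limma called 1 member (Fabp3) in each medium, beside 5048 genes in GM and 6522 in DM3 of 24893 tested. Unfiltered edgeR called 2 in GM (Mb and Fabp3) and 1 in DM3 (Fabp3), beside 4841 and 6183 of the same 24893 genes. For the response to DM3 relative to control, Ckm was higher and Pgam2 lower in MUNC spliced cells, beside 7.43% and 6.94% of all genes (1030 and 963, or 802 and 1134 with equal sums), and Ckm was higher in MUNC genomic cells, beside 3.56%. All MUNC comparisons of 1 medium share the same 3 control libraries.

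**Figure D4:**
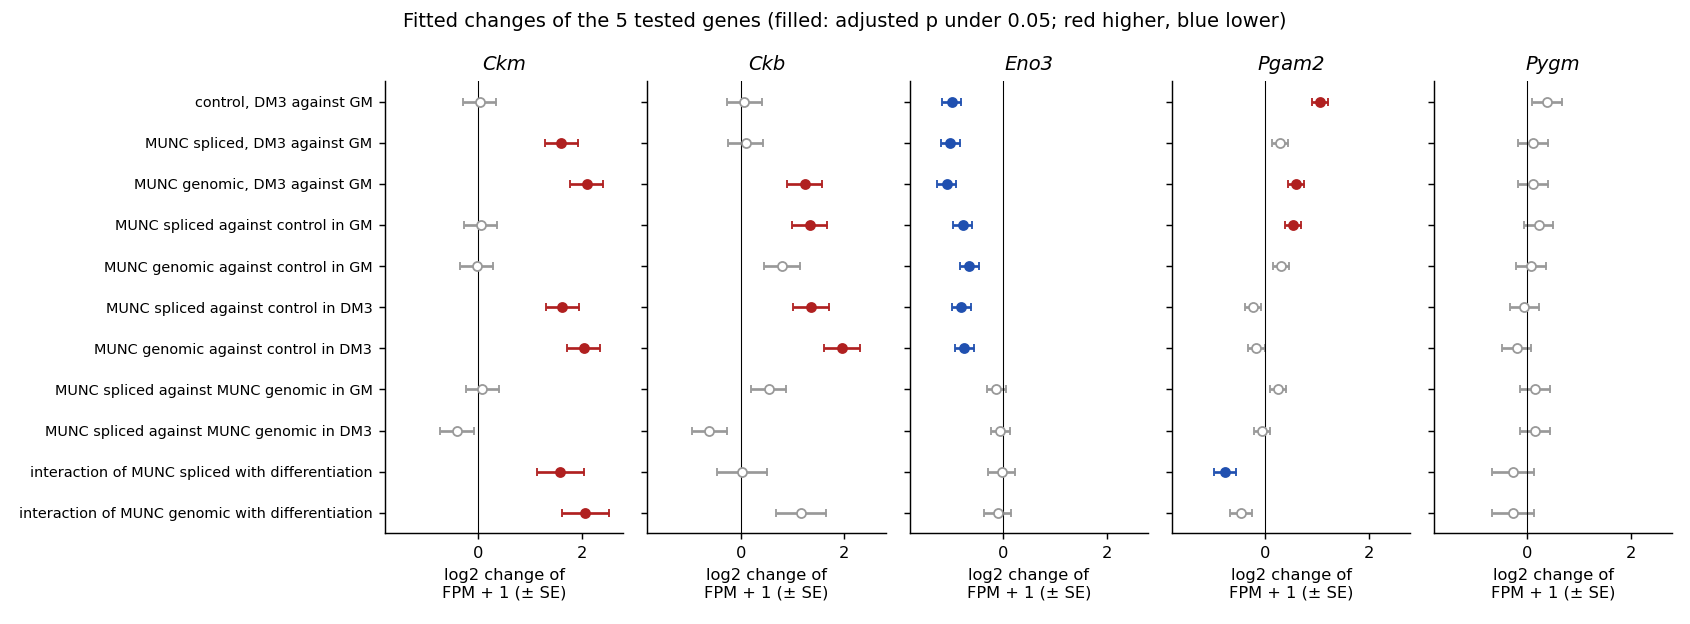
Fitted log2 change of FPM + 1 (horizontal axis, points, with bars of 1 SE) for the 5 members in the limma fit, in 11 comparisons (vertical axis). Filled points have an adjusted p under 0.05, red for higher and blue for lower; Eno3 is lower in each of the first 7 comparisons, Ckm is higher in the 4 that set MUNC DM3 against GM or control and in both interactions, and Pygm has no filled point.

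The counterpart forms, a list of 10 isoforms that other tissues use, were mostly lower than control in MUNC spliced cells, with fewer calls in MUNC genomic cells. Of 8 tested, 7 were lower and 0 higher in MUNC spliced than in control GM (median -0.72, against -0.02 for all genes), beside 17.3% of all genes called lower, with the largest fall for Eno2 at -1.61. Of these 7, Eno1 (-0.46) and Pgam1 (-0.41) lost their calls when libraries were scaled to equal sums or quantile normalized. In DM3 6 were lower and 0 higher (median -0.69, against 0.01 for all genes), beside 21% of all genes, led by Ampd3 at -2.70. In MUNC genomic cells 3 of 8 were lower in GM (median -0.34, against -0.03 for all genes) and 2 of 8 in DM3 (median -0.26, against -0.01), beside 14.5% and 20.9% of all genes, the DM3 share being close to the background. They were led in both by Eno2, at -1.90 and -2.46. From GM to DM3, 2 rose and 3 fell in control cells, beside 29.6% and 28.6% of all genes, with Ampd3 at 2.33 and Fabp5, an epidermal fatty acid binding protein, at -2.46. In MUNC spliced cells 1 rose (Eno2, 1.30) and 2 fell, beside 17.2% and 18.4%. In the MUNC genomic line 4 rose (Ampd3 the most, 2.85) and 2 fell, beside 26.3% and 25.1%. Fabp5 had the largest fall in both, -1.37 and -2.01.

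A second list held 22 other genes of muscle energy supply, of which 18 were tested. In control cells 5 rose in DM3 (Ppargc1a, the coactivator of mitochondrial genes, the most with 2.97) and 2 fell (Slc25a4, the ATP/ADP carrier, the most with -0.77), beside 29.6% and 28.6% of all genes, so the rises were close to the background. In MUNC spliced cells 1 rose, Cox6a2, a muscle subunit of cytochrome oxidase, by 1.56, and 3 fell, led by Ak1, an adenylate kinase, at -0.61, beside 17.2% and 18.4%. In MUNC genomic cells 3 rose, led by Phkg1, the muscle phosphorylase kinase subunit, at 0.81, and 5 fell, led by Lpl, lipoprotein lipase, at -1.22, beside 26.3% and 25.1%. The list medians of these 3 comparisons, 0.05, 0.01 and -0.02, were close to those of all genes, 0.02, -0.01 and 0.02. Ppargc1a had 13.9, 10.5 and 11.9 FPM in control DM3 and no more than 0.228 FPM in the 6 MUNC DM3 libraries, 3 of which had no reads. It was the largest fall against control in DM3, -3.48 in MUNC spliced cells, where 4 of the 18 were higher and 8 lower beside 22.3% and 21% of all genes. The MUNC genomic value was -3.70, where 5 were higher and 7 lower beside 19.3% and 20.9%.

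The largest rises in the same list differed between the lines. Cd36, a fatty acid transporter, exceeded its control level in MUNC spliced cells by 1.87 in GM and 2.30 in DM3. Slc16a3, the lactate exporter, was higher in MUNC genomic cells by 4.39 in GM and 3.98 in DM3. In the direct comparison, Cd36 was higher in MUNC spliced cells by 1.88 in GM and 2.29 in DM3, and Slc16a3 was lower by -4.48 and -3.92, all 4 called by limma. These were 2 higher and 6 lower genes of the list in GM and 2 higher and 7 lower in DM3, beside 35.8% and 44.2% of all genes called in either direction.

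The genes whose log2(FPM + 1) was most like that of Ckm over the 18 libraries, among 12136 genes with a mean of at least 1 FPM, were Dll1 (Pearson r = 0.908), a Notch ligand, Myl1 (0.903), a fast muscle myosin light chain, and Tnni1 (0.901), slow troponin I. For Ckb they were Ucp2 (0.939), a mitochondrial carrier, Heyl (0.915), a Notch target, and Brdt (0.915). These values describe 18 libraries in 6 groups that share medium and line, and the Ckm values rest on the 6 MUNC DM3 libraries.

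In the authors' deposited table for MUNC spliced against control in DM3, the log2 fold change was 5.89 for Ckm, 1.78 for Ckb, -0.77 for Eno3, 3.00 for Mb and 1.78 for Fabp3, the last with an adjusted p of 0.0351. In the authors' deposited table for MUNC genomic against control in DM3, it was 6.32 for Ckm, 2.45 for Ckb and -0.73 for Eno3. In the authors' deposited table for control DM3 against GM it was -1.02 for Eno3 and 1.82 for Pgam2. These are fold changes of counts without an added 1, and the Ckm values are larger than those on the log2(FPM + 1) scale.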

How the data were processed

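RNA abundance was measured in 18 libraries: 3 lines in 2 media with 3 replicates each, grouped by the sample titles. The source label (myoblasts or myotubes) goes against the title in 9 samples and was left aside. Values come from 1 expression table that the authors deposited, a signal scaled by 1 factor per library (FPM). The submitters' processing notes name STAR, HTSeq, DESeq2 and mm10, with no versions; the strand setting is not given in the sources used here. A label calls the values FPKM, but within a library all values were whole multiples of 1 step, and dividing by it recovered whole reads for 100% of values (within 0.05 of a read). Per the file headers, further deposited tables hold the authors' comparisons as log2 fold changes with adjusted p-values.

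For all 11 comparisons, 1 linear model of log2(FPM + 1) over the 18 libraries was fitted (limma 3.58.1, R 4.3.3, mean-variance trend, 12 residual degrees of freedom). It covered the 13869 genes that reached 0.5 FPM in 3 or more libraries, with p adjusted over them by Benjamini-Hochberg and calls below 0.05. The 4 members below the filter were tested with edgeR 4.0.16 on recovered reads without it. P-values measure the spread between these samples only, and intervals and limits cover counting error only, since the labels name no molecular identifiers and PCR copies are not independent molecules. The Ckm to Ckb ratio was tested by exact permutation. Alternatives were DESeq2 1.42.0, edgeR, other scalings, pseudocounts and filters, and leaving out each library. Scripts were tested on simulated data.

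The labels number the replicates 1 to 3 in each group. The deviations of same-numbered libraries from their group means correlated at r of 0.0163 to 0.727 in 27 pairs. The own number was the best match in 26 of these pairs. A limit of 0.1, set by choice, was exceeded by all 3 pairs in 6 of the 9 comparisons of 2 groups. The main fit did not pair the samples. The pairing comes from the data, as the labels do not say what a number marks. The genes and lists were chosen with earlier results of these data known. Named genes were the members, the called list gene with the largest rise and fall in each comparison, the counterparts of described members, Myod1, Myog and Myh3, and the 3 genes most like Ckm and Ckb. Des, Tnnt3 and the other markers of cell type given singly fall outside this rule and were named after their values were seen. Coordinates, gene models and coding sequences come from GENCODE M21 (GRCm38) and promoters from RefSeq.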

Additional observations from a re-analysis of the deposited data

Results flagged for a closer look

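The change of Ckm from GM to DM3 differed between the lines. Relative to control it was larger by 1.58 in MUNC spliced cells (SE 0.45, limma adjusted p = 0.03) and by 2.06 (SE 0.45, limma adjusted p = 0.00847) in MUNC genomic cells on the log2(FPM + 1) scale, and in 6 of 6 MUNC libraries in DM3 Ckm was above every GM and control library. Both values rest on control and GM libraries with 0 to 4 reads of Ckm. The MUNC spliced difference lost its call in 3 of 9 alternative settings and in 6 of 12 fits with 1 library left out.

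The change of Pgam2 differed in the other direction, by -0.77 in MUNC spliced cells relative to control (SE 0.22, limma adjusted p = 0.0286). Its level in MUNC spliced GM, 1.24 to 1.79 FPM, was already above that of control GM, 0.566 to 0.891 FPM, and the DM3 levels of both lines overlapped. The difference in response lost its call in 4 of 9 alternative settings and in 8 of 12 fits with 1 library left out.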

How the results depend on the processing

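Every call of Ckm, Ckb and Eno3 in DM3 of a MUNC line against control kept its direction and its side of the threshold under the alternatives run, which were another pseudocount, no filter, 2 other scalings, only the groups compared in the fit, a replicate block, edgeR, DESeq2 and leaving out each library. Depth limits Ckmt2, Ampd1, Mb and Fabp3, which had so few reads that single libraries decide several of their values. For values that changed sign or counts that moved, the cause was not tested, except that without the filter more genes, low members included, were tested.

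The number of members called was 4 for MUNC spliced DM3 against GM without the filter, where 4788 of 24893 genes were called. It was 2 for MUNC genomic against control in GM with DESeq2 (4353 of 13869 genes) and with unfiltered edgeR (3545 of 24893). For the MUNC spliced response relative to control it was 0 without the filter (1613 of 24893) and with unfiltered edgeR (1304 of 24893). It was 1 with quantile normalization (1797 of 13869), with only the groups compared (1214) and with filtered edgeR (1677). Between the MUNC lines without the filter it was 1 in GM (5048 of 24893) and 1 in DM3 (6522). With unfiltered edgeR it was 2 in GM (4841 of 24893) and 1 in DM3 (6183). With 1 library left out at a time it ranged from 0 to 2 for MUNC genomic against control in GM, from 0 to 1 between the MUNC lines in DM3, from 0 to 2 for the MUNC spliced response relative to control and from 1 to 2 for the MUNC genomic response. These ranges have no share of all genes beside them and describe only how the calls moved.

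The log2 ratio of Ckm to Ckb depended on the value added per kilobase. With 0.01 its change in DM3 was 0.38 in control, 4.50 in MUNC spliced and 5.12 in MUNC genomic cells, and with 1 it was 0.76 and 0.15 in the MUNC lines. By coding length it was 0.072 in control and 3.35 in MUNC genomic cells. Leaving out 1 library gave -0.33 to 0.18 in control, 2.16 to 3.43 in MUNC spliced and 1.70 to 2.58 in MUNC genomic cells.

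Quantile normalization turned values that had not passed the test: Ckm to -0.021 in control DM3 against GM and to -0.013 in MUNC spliced against control GM, Ckb to -0.21 in control and -0.023 in MUNC spliced DM3 against GM, and Myh3 to -0.014 in control DM3 against GM. Pygm became -0.035 in MUNC spliced and -0.095 in MUNC genomic DM3 against GM, -0.033 in MUNC spliced against control GM, and -0.086 in GM and -0.025 in DM3 between the MUNC lines. The MUNC spliced response of Ckb relative to control became -0.026 with equal sums, -0.038 with edgeR, -0.080 with DESeq2 and -0.061 with unfiltered edgeR. That of Eno3 became 0.060, 0.020 and 0.041 with the same 3 count tests. Pgam1 in control DM3 against GM became 0.020 with equal sums and 0.0040 with DESeq2.

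With 1 library left out, these values took both signs. Ckb ranged from -0.12 to 0.49 for MUNC spliced DM3 against GM, from -0.095 to 0.26 for control DM3 against GM and from -0.20 to 0.41 for the MUNC spliced response relative to control. Ckm ranged from -0.87 to 0.032 for MUNC spliced against MUNC genomic in DM3. Eno1 ranged from -0.090 to 0.19 for MUNC genomic against control in DM3 and from -0.32 to 0.032 for MUNC spliced against control in DM3. Eno3 ranged from -0.27 to 0.15 for MUNC spliced against MUNC genomic in DM3, from -0.20 to 0.0097 for the MUNC genomic response relative to control and from -0.24 to 0.18 for the MUNC spliced response relative to control. Fabp3 ranged from -2.28 to 0.17 for MUNC genomic against control in GM and from -0.0078 to 2.44 for MUNC genomic DM3 against GM. Mb ranged from -1.50 to 3.11 for MUNC genomic against control in GM and from -0.25 to 2.03 for MUNC spliced DM3 against GM. Pgam1 ranged from -0.074 to 0.050 for control DM3 against GM. Pgam2 ranged from -0.17 to 0.037 for MUNC spliced against MUNC genomic in DM3. Pygm ranged from -0.49 to 0.16 for MUNC genomic against control in DM3, from -0.030 to 0.19 for MUNC genomic against control in GM, from -0.13 to 0.30 for MUNC genomic DM3 against GM, from -0.034 to 0.39 for MUNC spliced against MUNC genomic in DM3, from -0.34 to 0.32 for MUNC spliced against control in DM3, from -0.065 to 0.34 for MUNC spliced DM3 against GM, from -0.55 to 0.10 for the MUNC genomic response relative to control and from -0.55 to 0.10 for the MUNC spliced response relative to control.

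The replicate number as a block changed no call of a member. Same-numbered libraries correlated best with their own number in 26 of 27 pairs, a hint from the data and not from the design. The block raised the number of genes called over the whole table from 1993 to 3868 for the MUNC spliced response relative to control and from 1222 to 2265 for the MUNC genomic response. With only the groups compared, the first was 1214, and 3046 in place of 4933 genes were called for MUNC spliced DM3 against GM. Unfiltered edgeR gave 1304 and 585 for the responses, and filtered edgeR 777 for MUNC genomic cells. The first fell to 1063 without control DM3 replicate 3, 1093 without control DM3 replicate 2 and 1203 without MUNC spliced GM replicate 2, and the second to 784 without control DM3 replicate 2.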
